A study of Homo sapiens with 6 samples.

Results

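The genes described here are 10 receptors through which myeloid cells sense cytokines: IL31RA, IL6ST, IL6R, OSMR, CSF1R, CSF3R, CSF2RB, IL10RA, IL4R and IL1R1. They were taken as a given list out of 20015 protein-coding genes in GENCODE version 44, and each was examined in a window made of its annotated span plus 50 kb on either side. Peaks of V5-tagged GSE1, a chromatin protein that associates with the histone demethylase LSD1, were collected from these windows: 29 of 21401 peaks in DMSO-treated cells and 6 of 13233 peaks after the LSD1 inhibitor MC2580. The genes were chosen with earlier results of these data known. The study itself names IL31RA among promoters with less GSE1 binding after MC2580, so the list is not independent of these peaks. The peaks come from chromatin immunoprecipitation and sequencing (ChIP-seq) with a V5 antibody in NB4, an established human acute promyelocytic leukaemia line. NB4 cells transduced by lentivirus with pLEX_307 carrying GSE1 transcript variant 2 were given DMSO or MC2580 (2 µM) for 24 h. Cells with the empty vector (EV), for which no treatment is given, provided the control ChIP, which served as background for both peak lists. Each of the 3 ChIPs had its own input, and there was 1 library per group. The tagged protein is made from a vector in addition to the cell's own GSE1, and peak positions hold no expression values with which the identity of the cells could be checked.

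Cytokine receptors assemble on binding their ligand and activate kinases inside the cell, mostly JAK kinases, which phosphorylate STAT transcription factors. IL6ST (gp130) is the shared chain of the interleukin-6 family, with which IL6R and OSMR signal, and the related IL31RA pairs with OSMR to bind interleukin-31. CSF1R is the receptor tyrosine kinase for M-CSF that macrophages need, CSF3R is the G-CSF receptor of neutrophils and their precursors, and CSF2RB is the common beta chain for GM-CSF and related cytokines. IL10RA and IL4R bind the cytokines that dampen or redirect macrophage activation, and IL1R1 carries the inflammatory signal of interleukin-1. Because granulocytes and monocytes gain several of these receptors as they mature, the study's question, where GSE1 lies on chromatin and how LSD1 inhibition changes this, can be asked at each of these genes.

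The sequences at the sites on which the results turn are shown first. They are the middle 200 bases of a DMSO peak on the plus strand of hg38, except for IL6R, where the 100 bases of the RefSeq promoter (GRCh38.p14) that precede the first annotated exon are given. The deposited lists name no summit, so the middle is not necessarily the point of strongest signal. Capitals mark words for myeloid transcription factors, searched on both strands with overlaps between words allowed: GAGGAAGT (PU.1), TGTGGTTT (RUNX), AAATCAC (GFI1), TTGCNNAA (CEBP), TGANTCA (AP-1) and TTCNNNGAA (STAT). IL31RA and IL6R are shown because their peaks were high in DMSO and absent after MC2580, the intron 1 and upstream sites of CSF1R and the IL10RA site with a score of 352.65 because a peak was called there in both lists, the IL10RA site with a score of 194.23 because it combines a pair of words, and CSF3R because its only peak holds a repeated word. The intron 10 site of CSF1R is shown as the other peak that covered an annotated start.
IL31RA, intron 1, chr5:55856587-55856786: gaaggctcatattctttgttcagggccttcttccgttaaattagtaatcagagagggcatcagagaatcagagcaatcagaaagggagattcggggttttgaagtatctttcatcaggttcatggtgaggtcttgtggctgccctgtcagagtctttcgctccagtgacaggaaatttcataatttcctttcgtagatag
IL6R, promoter, chr1:154405093-154405192: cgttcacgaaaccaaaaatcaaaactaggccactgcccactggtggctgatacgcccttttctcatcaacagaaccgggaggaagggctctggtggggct
CSF1R, intron 1, chr5:150082175-150082374: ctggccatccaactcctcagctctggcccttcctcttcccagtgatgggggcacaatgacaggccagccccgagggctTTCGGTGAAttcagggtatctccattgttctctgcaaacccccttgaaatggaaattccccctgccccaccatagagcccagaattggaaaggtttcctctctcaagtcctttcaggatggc
CSF1R, intron 10, chr5:150067200-150067399: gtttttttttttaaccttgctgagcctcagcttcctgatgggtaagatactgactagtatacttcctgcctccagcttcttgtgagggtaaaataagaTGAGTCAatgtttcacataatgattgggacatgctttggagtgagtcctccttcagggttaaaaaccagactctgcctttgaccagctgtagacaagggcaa
CSF1R, upstream, chr5:150159867-150160066: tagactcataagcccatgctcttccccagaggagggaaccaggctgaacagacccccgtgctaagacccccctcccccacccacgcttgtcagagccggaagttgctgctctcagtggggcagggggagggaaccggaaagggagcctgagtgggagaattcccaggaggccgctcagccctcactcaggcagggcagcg
IL10RA, upstream, chr11:117973871-117974070: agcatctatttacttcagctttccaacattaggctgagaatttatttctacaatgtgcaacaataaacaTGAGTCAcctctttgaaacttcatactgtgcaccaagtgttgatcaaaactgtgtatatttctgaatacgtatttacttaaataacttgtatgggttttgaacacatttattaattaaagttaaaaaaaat
IL10RA, downstream, chr11:118012342-118012541: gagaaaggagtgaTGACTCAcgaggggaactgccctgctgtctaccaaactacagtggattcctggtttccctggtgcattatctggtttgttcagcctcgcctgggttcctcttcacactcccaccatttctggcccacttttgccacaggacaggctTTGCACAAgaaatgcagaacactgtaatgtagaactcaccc
CSF3R, upstream, chr1:36486906-36487105: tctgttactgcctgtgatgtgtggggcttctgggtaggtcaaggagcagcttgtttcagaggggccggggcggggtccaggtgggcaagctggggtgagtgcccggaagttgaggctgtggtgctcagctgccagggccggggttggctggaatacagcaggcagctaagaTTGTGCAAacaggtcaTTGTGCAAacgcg

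V5-GSE1 was found near most of these receptor genes in DMSO and near few of them after MC2580. A DMSO peak lay in the window of 8 of the 10 genes, and an MC2580 peak in the window of 2, CSF1R and IL10RA. Among all protein-coding genes the shares were 48.0% and 27.3%, and among those outside peak-dense regions, meaning bins of 1 Mb where the lists jointly hold 40 peaks or more with overlapping ones counted once, 44.5% and 22.8%. Of the 8 genes with a DMSO peak, 2 kept an MC2580 peak in the window, against 52.5% of such protein-coding genes and 46.1% outside peak-dense bins. IL31RA, IL6R, CSF3R, CSF2RB, IL4R and IL1R1 had DMSO peaks only, whereas IL6ST and OSMR had none in either list. The windows of the receptor genes were somewhat longer than usual, with a median of 160.005 kb against 127.466 kb for all protein-coding genes, and a longer window can hold more peaks. The difference between the lists is a difference between 2 libraries, without replicates and at unknown read depth, and it was not tested.

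**Figure D1:**
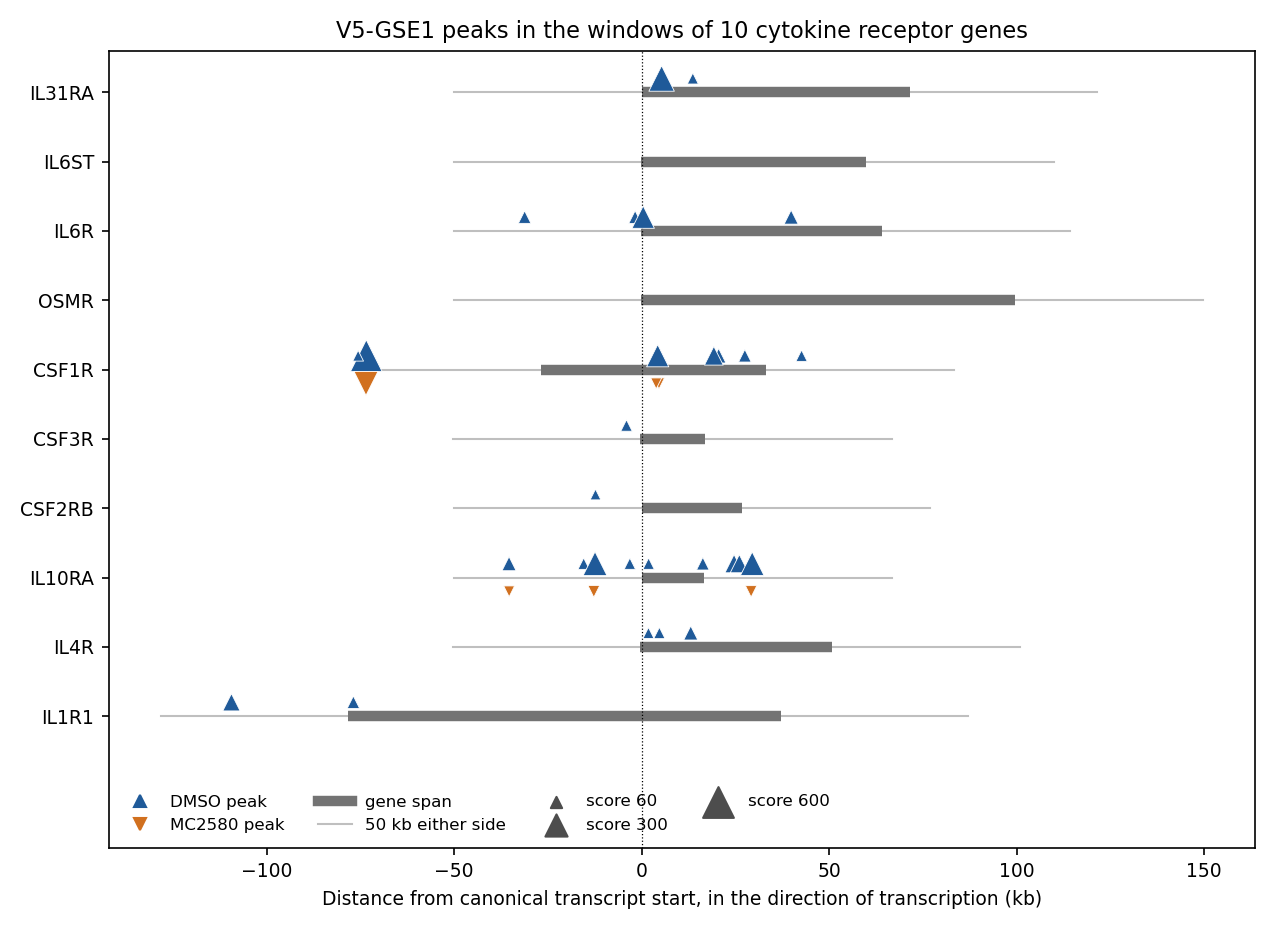
Each row is a receptor gene drawn in its own direction of transcription, with the distance from the start of its canonical transcript in kb on the horizontal axis; thick bars are gene spans, thin lines the 50 kb on either side, upward triangles DMSO peaks, downward triangles MC2580 peaks, and larger triangles higher scores. The 6 MC2580 peaks lie at CSF1R and IL10RA, and the rows of IL6ST and OSMR are empty.

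The peaks were concentrated at a pair of genes. The IL10RA window held 9 DMSO peaks and the CSF1R window 7, so that together they contained 16 of the 29. The remaining 13 were divided among IL6R with 4, IL4R with 3, IL31RA and IL1R1 with 2 each, and CSF3R and CSF2RB with 1 each. Per Mb of window the receptor genes had 19.4 DMSO peaks, against 9.20 for the windows of all protein-coding genes and 4.83 for genes outside the 120 peak-dense bins. None of the 29 DMSO or 6 MC2580 peaks lay in such a bin. Without CSF1R and IL10RA the density of DMSO peaks was 10.7 per Mb.

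The score of a peak is the authors' value of minus 10 times the log10 of the p-value, for which the calling threshold corresponds to 50. Over the 29 DMSO peaks it ranged from 53.18 to 636.71 with a median of 84.58, close to the median of 91.08 of the whole DMSO list. The 6 MC2580 peaks scored between 55.61 and 355.55 with a median of 61.2, against 78.1 for the whole MC2580 list. At these genes only 1 MC2580 peak therefore stood well clear of the threshold. The DMSO peaks were 631 to 2080 bp wide, with a median GC content of 52.6% against 47.0% for the list.

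**Figure D2:**
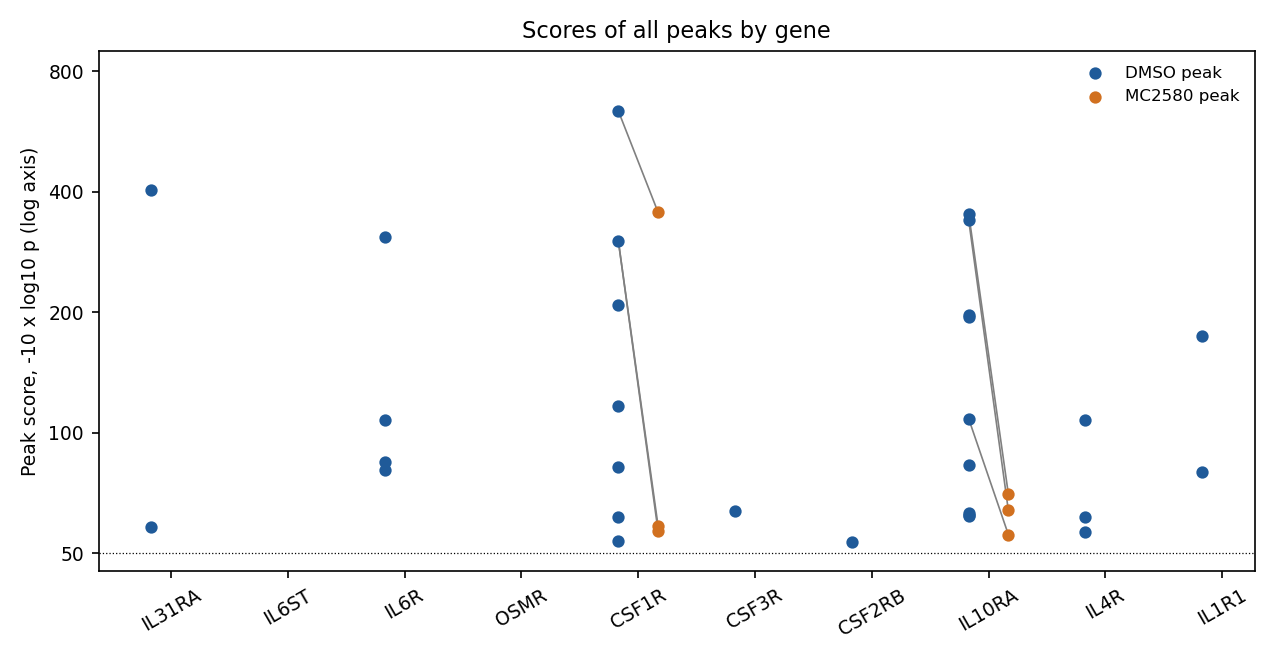
Points are the peaks in each receptor gene's window, with the score on a logarithmic vertical axis, DMSO to the left and MC2580 to the right of each gene; lines join peaks that overlap, and the dotted line is the calling threshold of 50. 5 of the 6 MC2580 points lie between 55.61 and 70.27, and each joins a higher DMSO point.

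Among the receptors of the interleukin-6 family and their relatives, IL31RA and IL6R carried high DMSO peaks and IL6ST and OSMR none. IL31RA spans chr5:55851357-55922854 on the plus strand. The IL31RA peak (chr5:55856064-55857308) scored 404.79, above 92.5% of the DMSO list. It lay in intron 1 of the canonical transcript, the 1 that the annotation marks as representative, which has 15 exons. Its middle was 5329 bp downstream of the canonical start and its edge was 2201 bp from another annotated start. A weaker peak in intron 2 (chr5:55864629-55865393) scored 58.04, near the threshold. In the MC2580 list the nearest peak to the IL31RA gene was 200755 bp away and scored 51.38. The letters shown above for the IL31RA site contain none of the words searched, while the intron 2 peak held a PU.1 word.

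IL6R (chr1:154405193-154469450, plus strand), which encodes the ligand-binding chain for interleukin-6, was the gene with the highest DMSO peak over an annotated start. That peak (chr1:154404722-154406801) was 2080 bp wide, scored 307.94 and covered exon 1 together with part of the antisense gene IL6R-AS1. A second peak (chr1:154403115-154404102, score 84.58) lay 1091 bp upstream of the nearest start, within IL6R-AS1. The others were in intron 6 of the canonical transcript (chr1:154444828-154445592, score 107.42) and 30674 bp upstream (chr1:154373784-154374519, score 80.54), where the closest protein-coding start was that of ATP8B2. No MC2580 peak was called within 246979 bp of the gene. The RefSeq promoter of IL6R held 1 word of the 6, an AP-1 word at base 288 of 300 and so beyond the stretch shown, a word present in 7.71% of 35116 RefSeq promoters.

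IL6ST (chr5:55935095-55995022, minus strand) lies next to IL31RA, and the nearest DMSO peak to it was the weak one in intron 2 of IL31RA, 69702 bp from its span. The nearest MC2580 peak was 128587 bp away. OSMR (chr5:38845858-38945596, plus strand), the oncostatin M receptor chain, was farther still from any peak. A DMSO peak with a score of 585.1 lay 391273 bp from it and overlapped an MC2580 peak with a score of 241.97. The shared chain IL6ST and its partner OSMR thus lacked a window peak in both conditions, and IL6R and IL31RA had peaks in DMSO only.

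Among the colony-stimulating factor receptors, CSF1R (chr5:150053291-150113372, minus strand) had more and higher peaks than CSF3R and CSF2RB. Its highest DMSO peak (chr5:150159451-150160482, score 636.71) was also the highest of all 29. It lay 46079 bp upstream of the nearest CSF1R start, between CSF1R's neighbour PDGFRB, whose start was 3579 bp away, and CDX1, so that assignment to CSF1R rests on the window alone. An MC2580 peak of nearly the same extent (chr5:150159528-150160569) scored 355.55, a ratio of 0.558. Of 1248 pairs in the same DMSO score decile, 76.6% had a lower ratio, so this site kept more of its score than most of that decile. The decile is wide, with DMSO scores from 321.87 to 3184.82, so its peaks were not matched in height.

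Within the CSF1R gene the highest DMSO peak (chr5:150081444-150083105) scored 301.45 and lay in intron 1 of the canonical transcript, 4280 bp downstream of its start. In myeloid cells transcription of CSF1R is known to depend on an enhancer in the intron that follows the macrophage start site, and whether the peak covers that element was not examined. After MC2580 there were 2 separate peaks inside the same interval, with scores of 58.57 and 56.86. Their ratios to the DMSO score were 0.194 and 0.189, and 1.53% and 1.05% of the 1048 one-to-one pairs in that decile had lower ones. These are not one-to-one pairs, since each MC2580 peak covers a part of the DMSO interval. The percentages also do not rank the loss, because DMSO scores in that decile ran from 187.31 to 321.81. With a calling threshold of 50, pairs at the lower of these scores could not reach such ratios. The sequence shown for this site carries a STAT word from base 79 to 87.

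A further 3 DMSO peaks in the CSF1R gene lay within 3 kb of annotated transcript starts other than the canonical one and had no MC2580 counterpart. Adjoining peaks in intron 10 scored 208.9 (chr5:150066653-150067946, over an annotated start) and 116.3 (chr5:150065463-150066568), and a peak in intron 14 (chr5:150058582-150059480) scored 82.17. The first held an AP-1 word, and the last a PU.1 word and a STAT word. The canonical start of CSF1R had no peak within 3 kb in either list. The remaining DMSO peaks of the window were weak, with 61.36 in an intron of HMGXB3 (chr5:150043467-150044353) and 53.53 nearest to CDX1 (chr5:150161755-150162521).

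CSF3R (chr1:36466043-36483278, minus strand) and CSF2RB (chr22:36913628-36940439, plus strand) had 1 DMSO peak each and none after MC2580. The CSF3R peak (chr1:36486609-36487401, score 63.53) lay 3331 bp upstream of the nearest start, just outside the 3 kb used for promoters. Its middle contained a CEBP word at bases 172 to 179 and again at bases 188 to 195 of the sequence shown, both on the minus strand. CEBP factors are known activators of CSF3R in granulocytes. The CSF2RB peak (chr22:36900922-36901653, score 53.18) was 11975 bp upstream and the weakest of all 29. Both scores were in the lowest 3 deciles of the DMSO list.

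IL10RA (chr11:117986370-118003037, plus strand), the ligand-binding chain of the interleukin-10 receptor, had the densest cluster. Its highest peaks flanked the gene and did not cover its starts. One (chr11:117973101-117974839, score 352.65) lay 11531 bp upstream of the nearest start, and the other (chr11:118014995-118016761, score 340.34) lay 21937 bp downstream of the nearest start, over an exon of SMIM35. Both overlapped an MC2580 peak, with scores of 70.27 and 63.91 and ratios of 0.199 and 0.188. In the top decile 24.0% and 21.7% of pairs had lower ratios, so that losses of this size were also seen at other peaks of similar height.

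The IL10RA window held 1 more shared site, 34829 bp upstream (chr11:117950552-117951541), with a score of 108.34 in DMSO and 55.61 in MC2580, closest to the start of TMPRSS13. The other 6 DMSO peaks had no counterpart. A pair in an intron of SMIM35 (chr11:118010500-118011586 and chr11:118011922-118012961) scored 196.63 and 194.23 and lay 3547 and 2172 bp from the nearest MC2580 peak, which was the one at the downstream site. The peaks nearest to the IL10RA starts were weak, with 61.82 over exon 2 (chr11:117987906-117988602, 832 bp from a start) and 62.1 upstream of the gene (chr11:117982847-117983651, 2719 bp from a start). A peak 15008 bp upstream (chr11:117970529-117971362) scored 63.08, and 1 over the 3′ end of the gene (chr11:118002252-118003178) scored 83.18. AP-1 words were found in the middle of 4 of the 9 DMSO peaks at IL10RA, among them both high ones and the peak with a score of 194.23, which also held a CEBP word.

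IL4R and IL1R1 had DMSO peaks of low to moderate score and no MC2580 peak. In IL4R (chr16:27313668-27364778, plus strand), the receptor chain for interleukin-4 and interleukin-13, 3 peaks lay in intron 1. Their scores were 56.37 (chr16:27315482-27316112), 61.39 (chr16:27318246-27319170) and 107.46 (chr16:27326592-27327553). The first was 85 bp from an annotated start, the highest 11195 bp from one, and the middle one held AP-1, CEBP and PU.1 words together. The nearest MC2580 peak was 1129018 bp from the gene, the longest such distance among the 10. In the window of IL1R1 (chr2:102064544-102179874, plus strand) the higher peak (chr2:102032665-102034094, score 174.08) was nearest to IL1R2, the decoy receptor, 9275 bp away. A peak 929 bp from an upstream start of IL1R1 (chr2:102065473-102066317) scored 79.91 and held an AP-1 and a CEBP word.

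Promoters were then considered, defined as within 3 kb of any annotated transcript start of the gene. In DMSO 6 of the 10 receptor genes had a promoter peak (IL31RA, IL6R, CSF1R, IL10RA, IL4R and IL1R1), against 16.2% of all protein-coding genes and 12.5% of those outside peak-dense bins. After MC2580 0 of 10 had one, against 7.88% and 4.53%. These genes have many annotated starts, with a median of 10.5 against 5 for all protein-coding genes, which raises the number of promoters that a peak can reach. Counting the canonical start alone, 3 of 10 had a DMSO promoter peak (IL6R, IL10RA and IL4R), against 11.0% of protein-coding genes, and 0 of 10 an MC2580 peak, against 4.78%. The promoter peaks numbered 11, with scores of 56.37 to 404.79, and 0 of the 11 overlapped an MC2580 peak. Of protein-coding genes with a promoter peak in DMSO, 39.6% also had one in MC2580.

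The 5 shared DMSO peaks, all at CSF1R and IL10RA, lay outside promoters. Those 5 peaks comprised 3 of 9 distal intergenic, 1 of 6 intronic and 1 of 3 exonic or untranslated region (UTR) peaks. In the whole DMSO list the shared percentage was similar near and away from transcript starts, at 33.3% of 7542 promoter peaks and 32.9% of 13603 others, or 21.6% and 23.5% outside peak-dense bins. The difference between 0 of 11 and 5 of 18 receptor gene peaks was not tested. It was not matched for score either, although sharing rose with score in the list as a whole. As a share of the 29, the peaks with an MC2580 counterpart made up 17.2% (95% Wilson interval from 7.60 to 34.5, for counting error only), against 33.6% of the whole list and 23.7% of DMSO peaks outside peak-dense bins. The interval contains both of these shares. It treats the peaks as independent, although 16 of the 29 lay at CSF1R and IL10RA, so it is no test of a difference. In the other direction, all 6 MC2580 peaks overlapped a DMSO peak (Wilson 95% interval 61.0 to 100), against 58.0% of the MC2580 list and 55.6% outside peak-dense bins. These peaks were not independent either, since a pair of them lay over the same DMSO peak in CSF1R. No site near these genes was found after MC2580 alone.

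Whether a peak was shared followed its score in the list as a whole. The 5 shared DMSO peaks had scores of 108.34 to 636.71 (median 340.34), and the 24 without a counterpart had scores of 53.18 to 404.79 (median 81.4). Had each of the 29 peaks overlapped at the share of its own score decile outside peak-dense bins, 7.74 would have been shared, against the 5 found. The IL31RA peak was the 1 of 4 in the highest decile with no counterpart, where 81.5% of DMSO peaks outside peak-dense bins and 87.9% of all DMSO peaks had one. IL31RA had already been named by the study for reduced GSE1 binding after MC2580. The IL6R peak fell in the next decile, where these shares were 50.2% and 62.3%, and 4 of 5 receptor peaks in that decile had no counterpart.

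**Figure D3:**
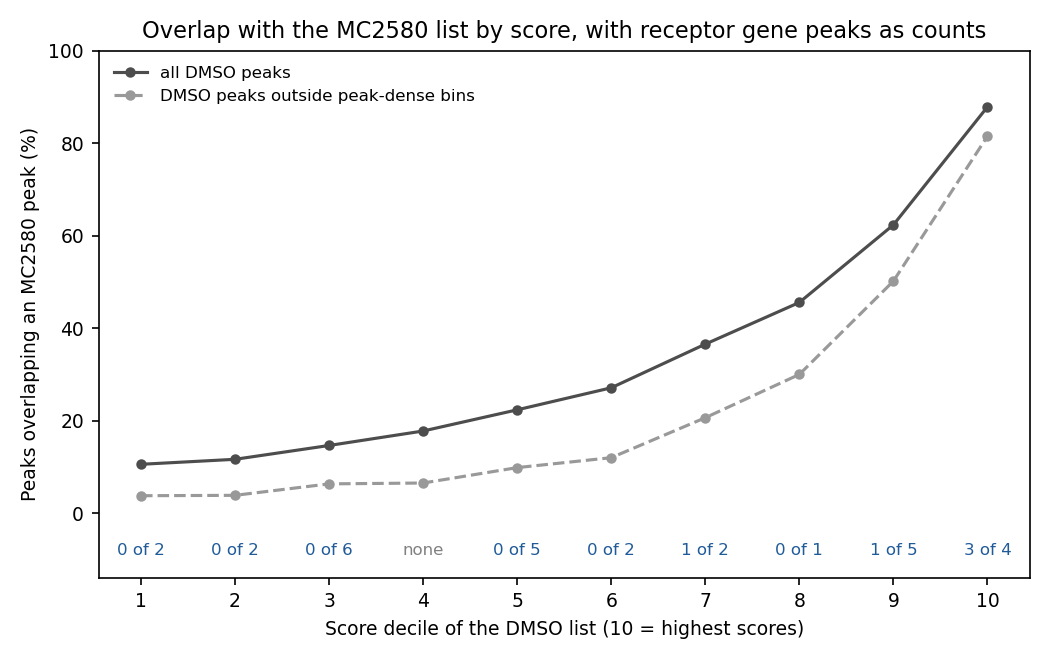
The horizontal axis gives the score decile of the DMSO list and the vertical axis the percentage of DMSO peaks that overlap an MC2580 peak, for all peaks (solid line) and for those outside peak-dense bins (dashed line); the counts along the bottom are the shared peaks of the receptor genes out of their peaks in each decile. The lines rise from 10.6% and 3.76% in the lowest decile to 87.9% and 81.5% in the highest, where 3 of 4 receptor gene peaks were shared.

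Where a site was called in both lists, the score was lower after MC2580 in each of the 6 overlapping pairs. It was also lower in most one-to-one pairs of the whole lists. The separate MC2580 peaks over the CSF1R intron 1 peak are counted as pairs of their own. The ratios were 0.558 and 0.513 for the far upstream sites of CSF1R and IL10RA, and 0.188 to 0.199 for the others. Over all 5449 pairs in which a single DMSO peak overlapped a single MC2580 peak the median ratio was 0.638, and in the decile of the higher IL10RA and CSF1R peaks it was 0.323 (quartiles 0.202 and 0.525). Scores depend on read depth, which was unknown, so a ratio does not separate binding from depth.

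**Figure D4:**
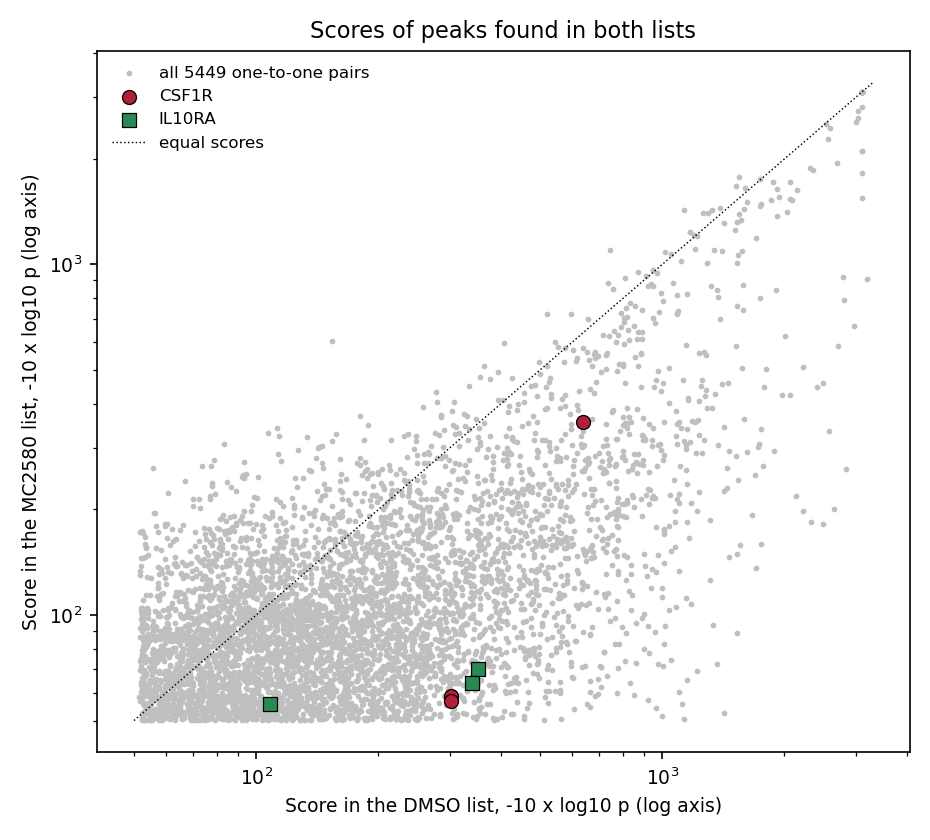
Grey points are all 5449 one-to-one pairs of overlapping peaks, with the DMSO score on the horizontal and the MC2580 score on the vertical axis, both logarithmic; circles are the 3 pairs at CSF1R, squares the 3 pairs at IL10RA, and the dotted line marks equal scores. All 6 coloured points lie below the line, and 5 of them lie near the calling threshold on the MC2580 axis.

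Words for transcription factors were counted in the middle 200 bases of every peak. At least 1 of the 6 words was present in 14 of the 29 DMSO windows and in 1 of the 6 MC2580 windows, against 33.4% and 28.2% of all windows in these lists. AP-1 words occurred in 7 of 29 DMSO windows, or 24.1%, against 9.33% of all DMSO windows. PU.1 words occurred in 3 (10.3%), against 2.94%, and STAT words also in 3, against 5.59%. CEBP words occurred in 5 (17.2%) against 14.1%, GFI1 words in 1 against 3.74%, and RUNX words in 0 against 4.67%. These shares were not tested, and neighbouring peaks of 1 gene are not independent. Of the 7 windows with an AP-1 word 4 were at IL10RA, and without that gene the count was 3 of 20. The DMSO peaks with AP-1 words included shared and unshared ones at IL10RA, and only unshared ones at CSF1R, IL4R and IL1R1. A match of letters is a description and does not show that a factor was bound.

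The remaining genes of these pathways were compared as lists. Of 40 other cytokine receptors, 26 (65.0%) had a DMSO window peak and 13 (32.5%) an MC2580 window peak, and promoter peaks were present in 10 of 40 and 4 of 40. Of 19 genes for ligands of the receptors described here and their relatives, 16 (84.2%) and 11 (57.9%) had a window peak, and 7 (36.8%) and 3 (15.8%) a promoter peak. Of 26 signalling genes downstream, 21 and 13 had a window peak, and 8 (30.8%) and 5 (19.2%) a promoter peak. In each list the number was lower after MC2580, as it was for all protein-coding genes. In these 3 lists the shares of genes with a window or promoter peak were above those of all protein-coding genes in both conditions (48.0% and 27.3% for windows, 16.2% and 7.88% for promoters). The receptors described here were above these shares in DMSO. After MC2580 they had 2 and 0 of 10 genes, against 22.8% and 4.53% of protein-coding genes outside peak-dense bins. For 10 genes these counts are near those shares, and the differences were not tested.

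**Figure D5:**
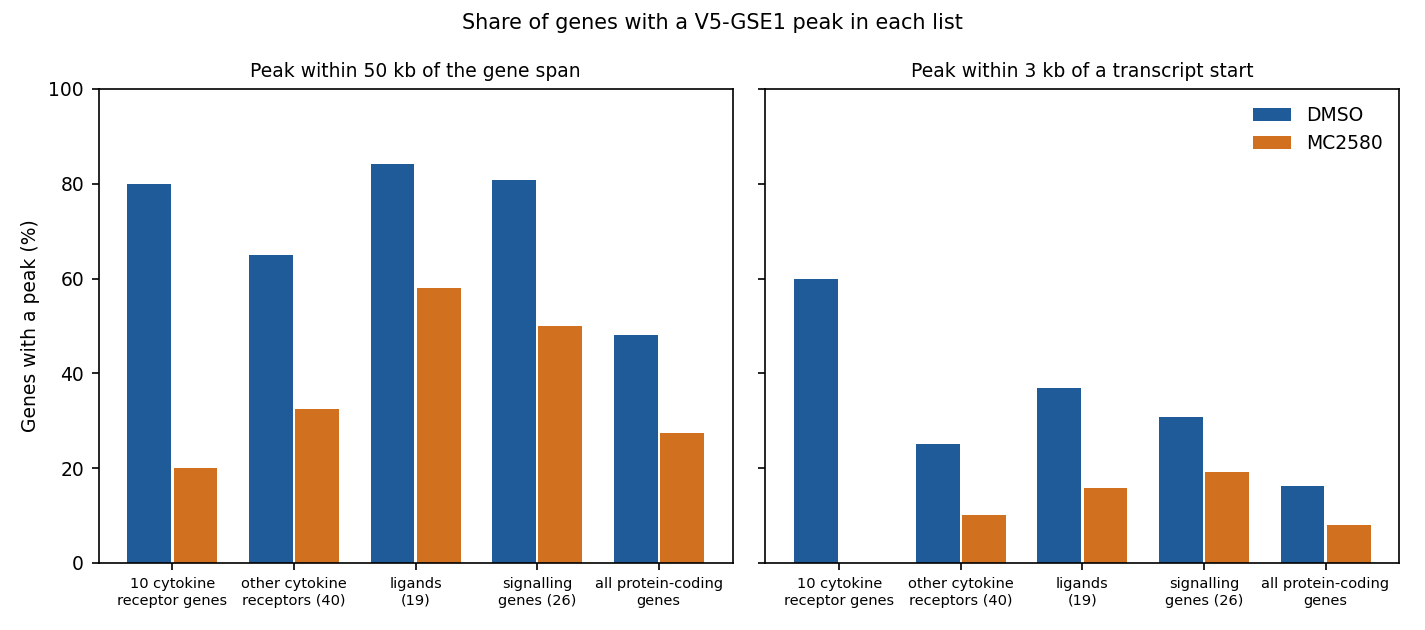
Bars give the percentage of genes with at least 1 peak within 50 kb of the gene span (left) and within 3 kb of a transcript start (right), in the DMSO and MC2580 lists, for the 10 receptor genes, the pathway lists and all protein-coding genes. The receptor genes go from 8 to 2 of 10 on the left and from 6 to 0 of 10 on the right, and all protein-coding genes from 48.0% to 27.3% and from 16.2% to 7.88%.

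Promoter peaks with a score of at least 200 in either list were found at 7 of these pathway genes. IL17RA, the interleukin-17 receptor chain, had the highest DMSO promoter score of the receptors (733.32, and 115.19 after MC2580). STAT6, the transcription factor activated through IL4R, had 663.59 in DMSO and 54.56 after MC2580, and STAT3, the main effector of gp130, 350.36 and 147.64. Each value is a gene's highest promoter score in that list, and whether the peaks of both lists overlap was not examined. IL1RN, which encodes the natural antagonist of IL1R1, had 421.81 and 127.74. These 4 genes, chosen by their high scores, had a promoter peak in both lists. Of the listed genes with a DMSO promoter peak, 4 of 10 other receptors, 2 of 7 ligands and 4 of 8 signalling genes also had one after MC2580. The figure was 0 of 6 for the receptors described here and 39.6% for all protein-coding genes. CNTFR, IL11RA and TYK2, counted among those with both, lie in peak-dense bins, where no receptor described here lies. JAK2, with a promoter peak in DMSO only, also lies in such a bin. The differences were not tested.

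The other 3 genes with a promoter score of at least 200 lie in peak-dense bins. CNTFR, a ciliary neurotrophic factor receptor chain, had promoter scores of 335.21 and 164.11, and IL11RA, the interleukin-11 receptor chain, had 212.35 and 305.83. TYK2, a JAK kinase, had 3100 in both lists, a value shared by many peaks of these lists. Equal scores at that value do not show equal binding.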

How the data were processed

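V5 ChIPs and inputs were sequenced from NB4 cells with 1 library per group. Per the study's methods and the submitters' processing notes, the authors aligned reads to hg38 with Bowtie (given as version 4.8.2), kept unique matches and ran the peak caller MACS with a p-value threshold of 1e-05 against the respective input and the EV ChIP. How these backgrounds were combined, and the read depth, are not given in the sources used here. The deposited score is minus 10 times the log10 of that p-value. Each list was assigned to its condition from its name, and both share the EV control.

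All 79 sequence names matched the reference, and 0 of 34634 peaks ran past a sequence end. Coordinates count from 1. Peaks were shared with at least 1 bp of overlap, the study's rule. Promoters were taken before exons or UTRs, introns and intergenic sequence. With 1 library per condition nothing was tested, and intervals cover counting error only. Pathway genes were named where a promoter peak scored at least 200. The receptors and lists were chosen with earlier results of these data known. Functions were tested on simulated data. Python 3.11.15, numpy 2.4.6, pandas 2.3.3, statsmodels 0.14.6 and matplotlib 3.10.9 were used.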

Additional observations from a re-analysis of the deposited data

How the results depend on the processing

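No paired analysis was possible because each condition had a single library, so no replicate could be left out either. Of 56 alternative values, 39 stayed within 1.5 times the reported count and 17 did not. Removal of peak-dense bins was chosen after seeing the data. Some of the 39 could not move, so their number overstates stability. None of these peaks lay in a peak-dense bin, and the widest, at 2080 bp, was below the 7875 bp limit for the widest 1%. The 17 values further away come from settings that keep fewer peaks or starts by construction. At a score of at least 100 there were 14 DMSO and 1 MC2580 peaks, 1 of each shared, with an MC2580 peak at 1 gene and a DMSO promoter peak at 3. With gene spans only there were 14 and 2 peaks, 1 DMSO and 2 MC2580 ones shared, and 1 gene with an MC2580 peak. Windows of 10 kb gave 2 MC2580 peaks at 1 gene, both shared with 1 DMSO peak. Peaks nearest to a receptor gene's start left 3 shared DMSO peaks, and canonical starts left 3 genes with a DMSO promoter peak. The count of 0 genes with an MC2580 promoter peak could not change under the 4 alternatives run for it. Each of them only removes peaks or starts, and no wider promoter distance was tried. Genes with a DMSO window peak ranged from 6 to 9, the last with 100 kb windows.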
